A study of Mus musculus with 28 samples.

Results

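The genes described here are the protein-coding members of the mouse Hox clusters, taken by symbol as Hoxa, Hoxb, Hoxc or Hoxd followed by a number. The rule found 39 genes among 21755 protein-coding genes of GENCODE M21 on chromosomes 1 to 19 and X, with 11 in Hoxa, 10 in Hoxb, 9 in Hoxc and 9 in Hoxd. Their position was read against domains of H3K9me2, the repressive histone methylation laid down by the methyltransferase EHMT2. It was profiled in mouse embryonic stem cells (mESCs) of a BL6/129 hybrid line by ULI-NChIP, in which native chromatin of few cells is digested and immunoprecipitated.

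All cells carried EHMT2 with a degron tag, which lets the degrader dTAG-13 remove the protein, and DMSO was the solvent control. Of the 28 libraries, 14 from the immunoprecipitation and 14 from input chromatin, the sorted conditions have 3 of each kind per condition. These conditions are mESCs and 2-cell-like cells (2CLCs) after 72 h in DMSO or dTAG, separated by a GFP reporter driven by the MERVL retrovirus, with GFP-negative cells taken as mESCs and GFP-positive cells as 2CLCs. There were also 2 libraries of each kind from unsorted mESCs kept in DMSO for 24 h. The sorted cells came from 1 clone per the study's methods and were grown on feeder cells. TTNBP, an agonist of the retinoic acid receptor, was added for 2 of the replicates per the labels, which do not say which ones, while the study's methods give it for the sorted cultures without that limit, so domains of cells with and without it cannot be told apart. Retinoic acid is a known inducer of Hox genes, and the part of TTNBP in the values below was not tested.

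The values are 5 sets of domains on mm10 (GRCm38), 1 list of positions for each of the 4 sorted conditions and 1 set, called the unnamed set here, whose name gives neither cell state nor treatment. A domain is a run of bins on a grid with 5 kb steps. It was built from bins with a high ratio of immunoprecipitation to input outwards to bins with a low ratio. Bins of a domain can thus have middling ratios. No list has values per replicate, the depth behind it is unknown, and no difference between sets could be compared with the spread between cultures, so no test was made. Differences under 1 bin of 5 kb were not read as differences. A stretch without a domain is one where no domain was called, which is not a measure of the amount of H3K9me2. Neither the loss of EHMT2 nor the identity of the sorted cells can be checked from domain positions.

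Hox genes encode homeodomain transcription factors that give cells their position along the body axis. The genes of a cluster lie in the order in which they act, from group 1 at the anterior end to group 13 at the posterior end, and genes of the same group in different clusters are paralogs. In undifferentiated mESCs the clusters are a textbook case of silencing by Polycomb complexes and H3K27me3, which is a different mark from H3K9 methylation. The paper cites studies of an interaction in mESCs between a Polycomb complex and the methyltransferase depleted here. It raises redundant repression at developmental genes as a possibility. How these systems relate at the Hox clusters was not tested.

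No Hox gene started in a domain in any of the 5 sets. Over all protein-coding genes, 22.3% started in a domain in DMSO and 23.6% in dTAG in mESCs, 23.2% and 26.5% in 2CLCs and 30.0% in the unnamed set. The 39 genes lie in 4 places, so they count as 4 positions rather than 39. None of the 39 starts, all outside domains in DMSO, lay inside one in dTAG in either cell state. Among all starts that lay outside domains in DMSO, 8.14% lay inside a domain in dTAG in mESCs and 9.80% in 2CLCs. Gene bodies were also free of domains in the 4 sorted sets, and in the unnamed set 1 body, that of Hoxd1, met a domain.

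The domain-free window of a cluster was measured as the stretch between the last domain before it and the first domain after it. Hoxb, with its genes for hindbrain and neural tube patterning, had the widest window in each of the 5 sets and Hoxd, known for limb and digit patterning, the narrowest. The order between Hoxa and Hoxc changed with the set. The ranks of Hoxb and Hoxd hold with all domains counted. With domains under 20 kb left out the Hoxd window in mESC dTAG, 1675 kb, was wider than those of Hoxa and Hoxc, with domains under 50 kb left out the Hoxc window in 2CLC DMSO, 6630 kb, was wider than that of Hoxb and the Hoxa window in 2CLC dTAG, 1650 kb, narrower than that of Hoxd, and without domains found in 1 sorted set the Hoxc window in mESC DMSO, 6035 kb, was wider than that of Hoxb. Windows can hold many genes besides Hox genes, and the stretches common to the 4 sorted sets held 142 protein-coding starts, of which 103 were no Hox genes.

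**Figure D1:**
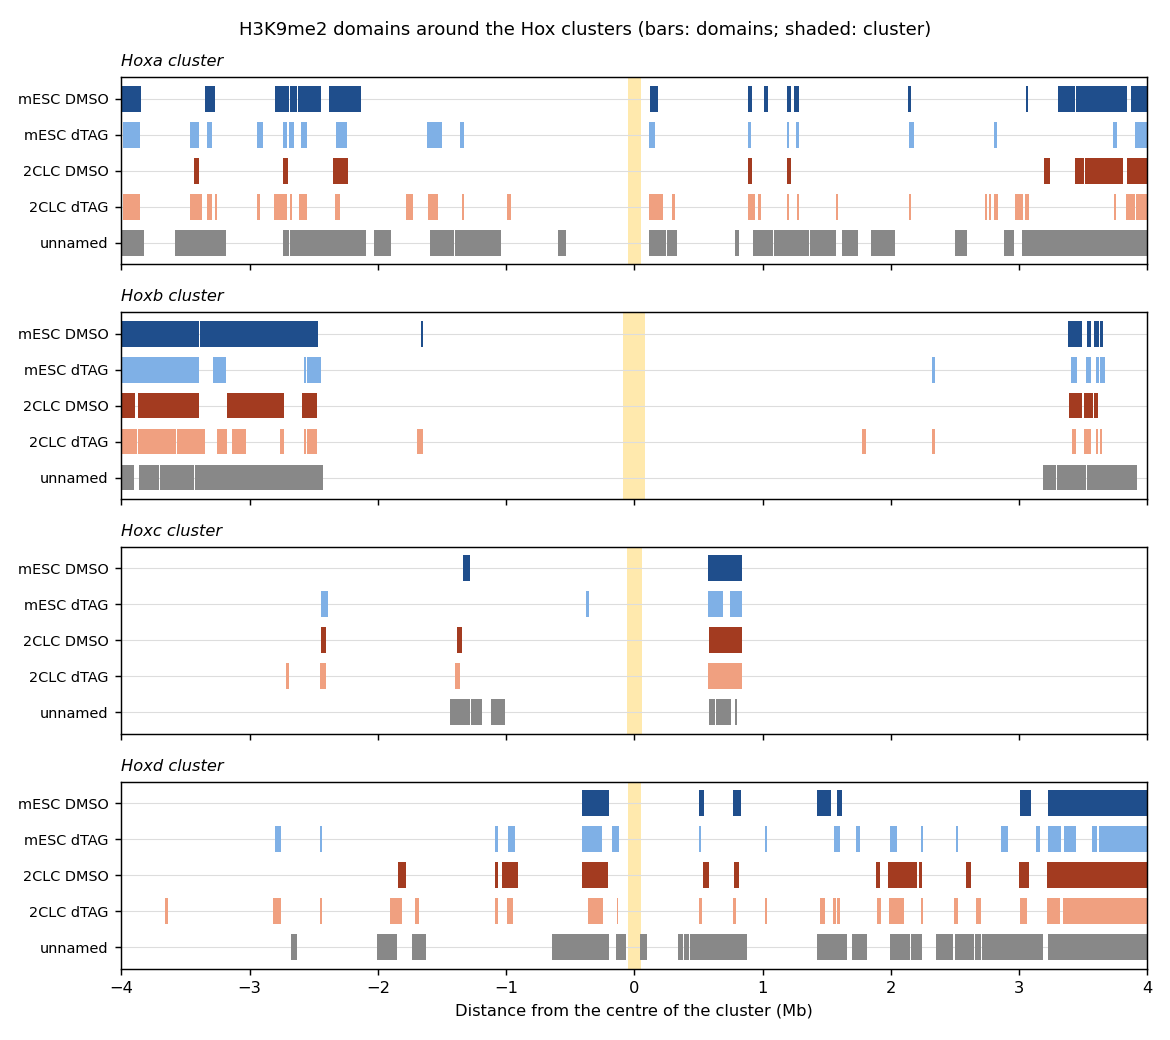
Each row shows the domains (bars) of 1 set within 4 Mb of the centre of a Hox cluster, with distance on the x axis in Mb and the cluster shaded. No sorted set has a domain over a cluster, the empty stretch around Hoxb is 3425 to 5865 kb wide in the sorted sets, and that around Hoxd 625 to 740 kb.

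Hoxa lies at chr6:52155590-52260880 on the minus strand, a span of 105 kb with the anterior genes at the low coordinates and Hoxa13 at the high end. Hoxa2 acts in the hindbrain, and Hoxa13 in the digits and the urogenital tract. The window was 2255 kb wide in DMSO and 1450 kb in dTAG in mESCs, 3120 kb and 1080 kb in 2CLCs and 650 kb in the unnamed set. It was uneven around the cluster in all of them. On the Hoxa13 side the nearest domain was 70.5 kb from the cluster in DMSO and 65.5 kb in dTAG in mESCs, 835 kb and 65.5 kb in 2CLCs and 61.4 kb in the unnamed set. On the low side of the cluster the distances were 2079 kb, 1279 kb, 2179 kb, 909 kb and 483 kb in the same order.

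The domain on the Hoxa13 side lay just past Evx1, a homeobox gene next to the cluster that is linked to it in vertebrates. It was at chr6:52331338-52396337 in mESC DMSO, 65 kb wide, and held no start of a protein-coding gene. In mESC dTAG it was 40 kb wide and in 2CLC dTAG 105 kb. In 2CLC DMSO none of its bases were in a domain, and the next one began 835 kb from the cluster, beyond Jazf1. The start of Evx1 was 17.8 kb from a domain in DMSO and 12.8 kb in dTAG in mESCs, 783 kb and 12.8 kb in 2CLCs and 8.8 kb in the unnamed set. 2CLC DMSO was thus the set that stood apart on this side.

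On the low side of Hoxa, both dTAG sets had domains inside the stretch that was free in both DMSO sets. A domain over the starts of Npvf, which encodes a neuropeptide precursor, and 4921507P07Rik was 120 kb wide in mESC dTAG and 80 kb in 2CLC dTAG, and all bases of the second lay in the first. It was not limited to dTAG sets, since 78.4% of the first and 73.8% of the second lay in domains of the unnamed set. The 25 kb domain that closed the window in mESC dTAG also lay in domains of the unnamed set, with 100% of its bases. In 2CLC dTAG a further 50 kb domain held the start of Osbpl3, an oxysterol binding protein gene, and a 30 kb domain closed the window 909 kb from the cluster. Neither of these had a base in a domain of another set. The window's outer genes on this side were Mpp6 inside and Npy outside in both DMSO sets, and Nfe2l3 inside and Npvf outside in both dTAG sets.

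Hoxb lies at chr11:96194316-96368256 on the plus strand, with Hoxb13 at the low end, a gap to Hoxb9, and Hoxb1 at the high end of its 174 kb. Its window was 5030 kb wide in DMSO and 4770 kb in dTAG in mESCs, 5865 kb and 3425 kb in 2CLCs and 5610 kb in the unnamed set. Ranked among all stretches between neighbouring domains of the same set, it was number 15 of 4303 in mESC DMSO, 3 of 7292 in mESC dTAG, 10 of 4226 in 2CLC DMSO, 2 of 8800 in 2CLC dTAG and 4 of 6558 in the unnamed set. The median stretch was 45 to 60 kb in the sorted sets and 15 kb in the unnamed set. These stretches were taken with or without genes, and a stretch picked because it holds genes tends to be wide. The median protein-coding start outside domains in mESC DMSO lay 315 kb from a domain. Windows around other protein-coding starts were not ranked, so the ranks do not compare Hoxb with other genes. The window was rich in genes, with 77 to 164 protein-coding starts besides the Hox genes in the sorted sets.

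Both ends of the Hoxb window moved between conditions, and the domains that ended it were narrow in several sets. In mESC DMSO the Hoxb13 side ended 1565 kb away at a domain of 10 kb, which lay 0.1 kb from the start of Lrrc59. In 2CLC dTAG a domain of 45 kb covered the same place, with the starts of Lrrc59 and Acsf2 inside it, 1560 kb from the cluster. In mESC dTAG and 2CLC DMSO that side was free as far as 2360 kb and 2385 kb, between Utp18 and Car10. On the Hoxb1 side the window reached 3291 kb in mESC DMSO and 3306 kb in 2CLC DMSO, up to a keratin-associated protein gene array at Krtap4-6 and its neighbours. In mESC dTAG it ended at 2236 kb and in 2CLC dTAG at 1691 kb. The 25 kb domain that closed it in mESC dTAG, over the starts of Gm12355 and Gsdma3, was present with the same boundaries in 2CLC dTAG and in neither DMSO set.

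Hoxc spans 116 kb at chr15:102921103-103036852 on the plus strand, from Hoxc13, a gene known for its role in hair and nails, to Hoxc4. Its window was 1855 kb wide in DMSO and 925 kb in dTAG in mESCs, 1925 kb and 1935 kb in 2CLCs and 1590 kb in the unnamed set. The Hoxc4 side was the steadiest edge of the 4 clusters. Its nearest domain was 517 kb away in mESC DMSO, mESC dTAG and 2CLC dTAG and 522 kb away in 2CLC DMSO and the unnamed set, a range of 1 bin in the sorted sets. In each of the 5 sets this edge fell between Ppp1r1a, a phosphatase inhibitor gene, and Glycam1, whose start was in the domain. The domain beyond it was 115 to 265 kb wide in the sorted sets, and unsequenced bases made up 3.53 to 19.3% of it there.

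The Hoxc13 side ended 1223 kb away in DMSO and 293 kb in dTAG in mESCs, 1288 kb and 1303 kb in 2CLCs and 952 kb in the unnamed set. Apart from mESC dTAG, this edge lay in or beside the type II keratin gene array, with Krt5, Krt6a, Krt8, Krt75 or Krt78 among the nearest starts in 3 of these sets and Gm5478 and Gm5414 in 2CLC DMSO. In mESC dTAG the window was closed by a domain of 30 kb at chr15:102598600-102628599 over the starts of Atf7, a transcription factor of the ATF family, and Gm28047. None of its bases were in a domain of another set. The start of Atf7 was 927 kb from a domain in mESC DMSO and, in 2CLCs, 933 kb in DMSO and 928 kb in dTAG.

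Hoxd spans 96.8 kb at chr2:74668310-74765142 on the plus strand, from Hoxd13, required for digits, to Hoxd1. Gene deserts with limb enhancers are known to flank it on both sides. Its window was 705 kb wide in DMSO and 625 kb in dTAG in mESCs, 740 kb and 630 kb in 2CLCs and 110 kb in the unnamed set. The 4 sorted windows differed by at most 115 kb, less than those of any other cluster. On the Hoxd13 side the nearest domain was 150 kb away in DMSO and 70.4 kb in dTAG in mESCs, 155 kb and 75.4 kb in 2CLCs and 14.8 kb in the unnamed set. On the Hoxd1 side it was 458 kb away in both mESC sets and 2CLC dTAG, 488 kb in 2CLC DMSO, and overlapped the cluster by 1627 bases in the unnamed set.

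The shift on the Hoxd13 side was 80 kb in each cell state and came from separate domains over the start of Lnpk, which encodes an endoplasmic reticulum protein and is the next coding gene after Evx2. This domain was 55 kb wide in mESC dTAG and 15 kb in 2CLC dTAG, and had no bases in a domain of either DMSO set. In the unnamed set 44.3% of the mESC dTAG domain and 100% of the 2CLC dTAG domain lay in domains. The start of Lnpk was 61.6 kb from a domain in mESC DMSO and 66.6 kb in 2CLC DMSO. Evx2, 8.8 kb from Hoxd13, was outside domains in every set, at 142 kb in DMSO and 61.7 kb in dTAG in mESCs, 147 kb and 66.7 kb in 2CLCs and 6 kb in the unnamed set. The nearer domain did not go with more domain sequence on that side, since the 500 kb beside Hoxd13 held 210 kb of domains in both mESC sets, and in 2CLCs 200 kb in DMSO against 130 kb in dTAG.

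**Figure D2:**
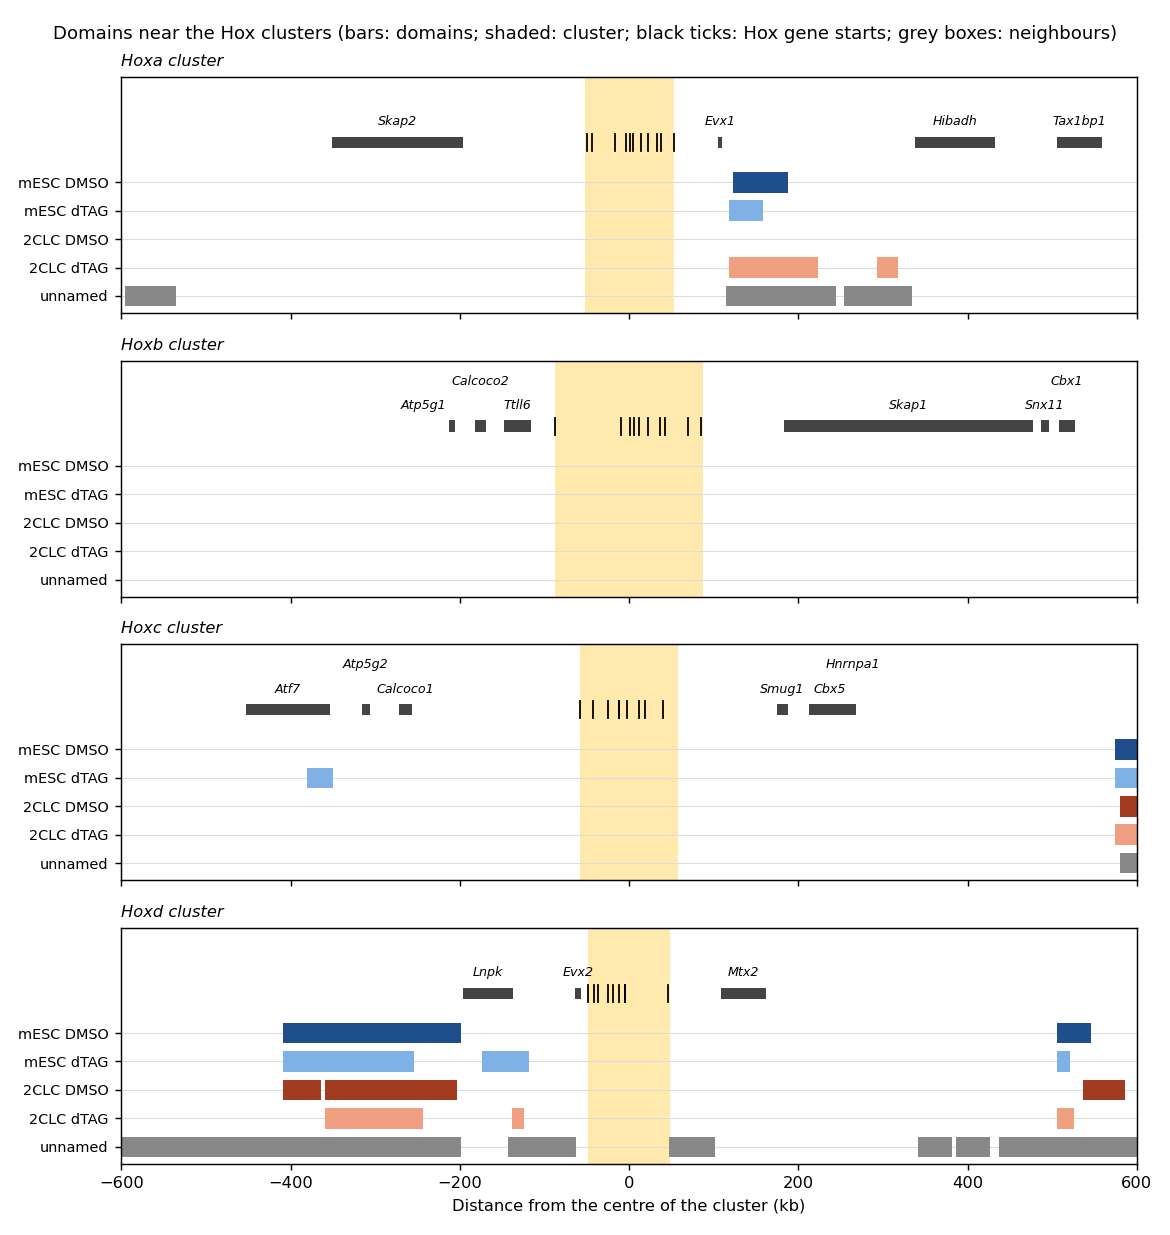
Each row shows the domains (bars) of 1 set within 600 kb of the centre of a Hox cluster, with distance on the x axis in kb, Hox starts as black ticks and the nearest protein-coding neighbours as grey boxes. Domains lie past Evx1 in all sets but 2CLC DMSO, over the Lnpk start in both dTAG sets and the unnamed set, over the Atf7 start in mESC dTAG, and at Hoxd1 in the unnamed set.

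Seen from single genes, the distance from a start to the nearest domain went with the cluster. Over the 39 starts it ran from 70.5 to 1736 kb in mESC DMSO (median 245 kb), from 65.5 to 2360 kb in mESC dTAG (168 kb), from 155 to 2556 kb in 2CLC DMSO (851 kb), from 65.5 to 1709 kb in 2CLC dTAG (170 kb) and from 0.5 to 2511 kb in the unnamed set (164 kb). Over all protein-coding starts outside domains the medians were 315 kb, 146 kb, 329 kb, 105 kb and 198 kb in the same order. Hoxa and Hoxd starts lay below this median in mESC DMSO, with those of Hoxd 150 to 245 kb from a domain, and all Hoxb and Hoxc starts lay above it. This did not hold in every set. In 2CLC DMSO the Hoxa starts, at 835 to 938 kb, lay above the median. In both dTAG sets the Hoxa and the Hoxd starts lay on both sides of it. Of all 21755 starts, 61.9% were at least as far from a domain as Hoxa13 in mESC DMSO and 51.9% as far as Hoxd13, whereas 6.42% were as far as the nearest Hoxb gene, and in 2CLC dTAG 0.106% were, shares that include the Hoxb genes themselves.

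**Figure D3:**
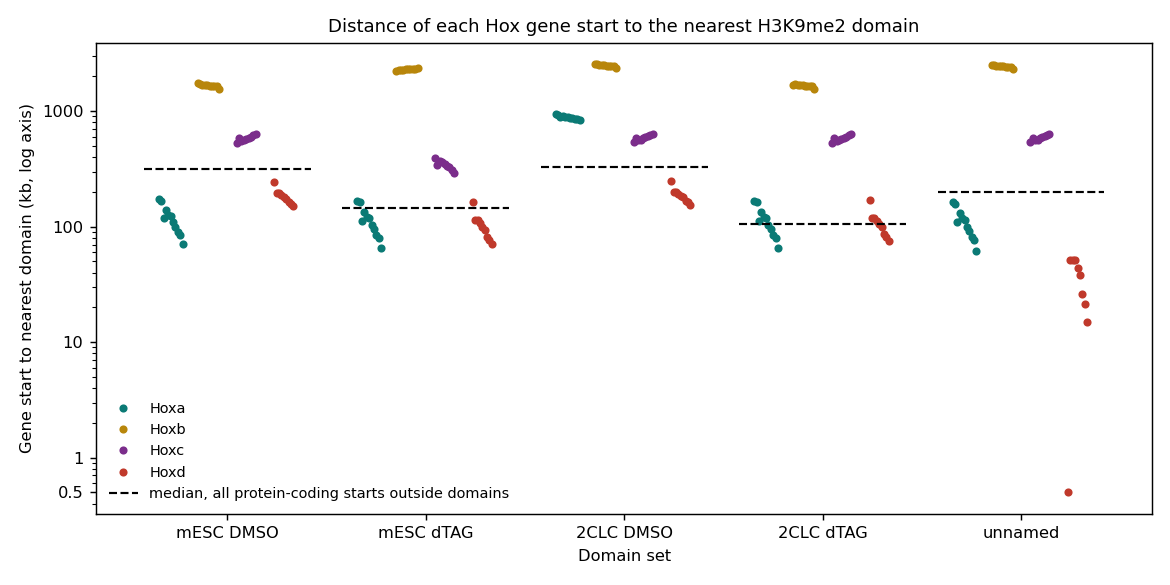
Each point is a Hox gene start, coloured by cluster and placed from the lowest to the highest paralog group within it, with its distance to the nearest domain on a log axis in kb and the 5 sets on the x axis. Dashed lines give the median of all protein-coding starts outside domains, between 105 and 329 kb, and the Hoxb starts lie at 1560 kb or more in every set.

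The GENCODE models of Hoxa3, Hoxc5 and Hoxd3 start among their neighbours, which puts these starts out of order. Within Hoxa and Hoxd the group 13 gene was the nearest to a domain in the sorted sets. Hoxa13 was 70.5 kb from a domain in mESC DMSO and Hoxa2 167 kb, and Hoxd13 was 150 kb away and Hoxd1 245 kb. Counted over the 4 clusters and the 4 sorted sets, the nearer edge was on the group 13 side in 12 of 16 cases, in 4 of 4 sets for Hoxa and for Hoxd, in 3 for Hoxb and in 1, mESC dTAG, for Hoxc. With domains of at least 50 kb alone the count was 10 of 16, with Hoxa on that side in 2 sets and Hoxc in 0. The 16 cases are 4 places seen in 4 sets that share domains, such as the one past Evx1, so they are not 16 separate cases.

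The stretches before the starts of Hoxa13 and Hoxd13, the genes nearest to a domain in their clusters in the sorted sets, and of Hoxd1, the gene that a domain of the unnamed set met, are shown because they lie where domain and cluster come closest. Hoxd1 was added after its values were seen. Each line gives 250 bases upstream of the RefSeq start (GRCm38.p6), 5′ to 3′ on the gene's strand, with CG dinucleotides, the bases at which mammalian DNA is methylated, in capitals.
Hoxa13 (chr6:52260881-52261130, minus strand): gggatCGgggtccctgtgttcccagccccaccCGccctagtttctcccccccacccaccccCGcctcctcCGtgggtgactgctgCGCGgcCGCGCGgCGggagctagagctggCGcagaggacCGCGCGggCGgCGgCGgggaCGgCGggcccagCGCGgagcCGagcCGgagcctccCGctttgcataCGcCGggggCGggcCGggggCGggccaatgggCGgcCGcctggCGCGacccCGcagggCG
Hoxd13 (chr2:74667975-74668224, plus strand): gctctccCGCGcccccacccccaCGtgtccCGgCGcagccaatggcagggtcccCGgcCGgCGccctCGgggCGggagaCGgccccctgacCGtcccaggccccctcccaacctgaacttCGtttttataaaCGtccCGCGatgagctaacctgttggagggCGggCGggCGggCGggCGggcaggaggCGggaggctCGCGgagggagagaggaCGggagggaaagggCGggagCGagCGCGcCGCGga
Hoxd1 (chr2:74762730-74762979, plus strand): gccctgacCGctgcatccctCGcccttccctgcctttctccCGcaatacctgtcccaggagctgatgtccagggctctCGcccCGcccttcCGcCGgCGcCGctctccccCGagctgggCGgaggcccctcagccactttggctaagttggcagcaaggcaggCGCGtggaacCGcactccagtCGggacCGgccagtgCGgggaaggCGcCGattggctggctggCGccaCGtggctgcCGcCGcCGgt
They held 35, 31 and 24 CG. None of the stretches was in a domain in the sorted sets. In the full RefSeq promoter windows of 300 bases, the Hoxa13 promoter had 45 CG, a number that 1.95% of 32619 promoters reached, Hoxd13 37 (5.62%) and Hoxd1 29 (13.0%). The table held 24 promoters of 22 Hox genes. Their median was 14.5 CG, which 34.9% of all promoters reached, with a range of 4 to 45. The median over all promoters was 7. Hoxa5 had 29 CG like Hoxd1, and Hoxa9, Hoxd4 and 1 of the promoters of Hoxd11 had 4. Most Hoxb and Hoxc genes had no promoter in the table.

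The clusters also hold microRNA genes, 7 among 43 noncoding genes inside the spans. None of the 43, nor the 3 further coding genes there, started in a domain of any set. The miR-10 and miR-196 families are known to target Hox transcripts, and their mature 5p strands (RefSeq, GRCm38.p6) are shown with the seed, bases 2 to 8, in capitals, because the copies in different clusters share it.
mmu-miR-10a-5p, Hoxb cluster: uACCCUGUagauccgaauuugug
mmu-miR-10b-5p, Hoxd cluster: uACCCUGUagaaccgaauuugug
mmu-miR-196a-5p, Hoxb and Hoxc clusters: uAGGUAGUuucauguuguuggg
mmu-miR-196b-5p, Hoxa cluster: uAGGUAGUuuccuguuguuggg
Copies with the same seed had very different distances to a domain. The miR-10a sequence in Hoxb was 1687 kb from a domain in DMSO and 2288 kb in dTAG in mESCs, 2507 kb and 1682 kb in 2CLCs. Its Hoxd relative miR-10b was 208 kb, 128 kb, 213 kb and 133 kb away in the same sets. For miR-196b in Hoxa the distances were 101 kb, 96 kb, 866 kb and 96 kb.

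To describe how domain calls in these surroundings differed after EHMT2 depletion, window widths were compared between DMSO and dTAG within each cell state. The paper reports that depletion lowered H3K9me2 globally in both sorted cell types. Domains were called from percentiles of the ratio to input. A domain found in dTAG alone, or a narrower window, is thus not a measured gain of H3K9me2. In mESCs all 4 windows were narrower in dTAG, by 805 kb around Hoxa, 260 kb around Hoxb, 930 kb around Hoxc and 80 kb around Hoxd. In 2CLCs the windows of Hoxa, Hoxb and Hoxd were narrower by 2040 kb, 2440 kb and 110 kb, and that of Hoxc was wider by 10 kb. Narrower windows were the rule in the genome, since the window around a protein-coding start outside domains in both sets was narrower in dTAG for 79.5% of starts in mESCs and 87.9% in 2CLCs. The dTAG to DMSO ratio of widths in mESCs was 0.643 for Hoxa, 0.948 for Hoxb, 0.499 for Hoxc and 0.887 for Hoxd, beside a median of 0.577 over all such starts. In 2CLCs it was 0.346, 0.584, 1.01 and 0.851, beside a median of 0.393. The Hoxb window in mESCs had its low edge 795 kb farther out in dTAG and its high edge 1055 kb farther in. The low edge in DMSO was the 10 kb domain near Lrrc59, and with domains under 20 kb left out the low side was 2380 kb in DMSO and 2360 kb in dTAG.

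This direction depended on narrow domains. Of the domains at the window edges, 11 of 16 in the dTAG sets and 4 of 16 in the DMSO sets were under 50 kb wide. The share of such domains over the whole sets was not computed, so these counts are not read as particular to Hox windows. In mESCs the whole sets had 4303 stretches between domains in DMSO and 7292 in dTAG, and in 2CLCs 4226 and 8800. With domains under 50 kb left out the mESC windows were wider in dTAG for all 4 clusters, by 3145 kb around Hoxa, 3865 kb around Hoxb, 1110 kb around Hoxc and 1145 kb around Hoxd. In 2CLCs the Hoxb and Hoxd windows were then wider by 115 kb and 1490 kb, and the Hoxa and Hoxc windows narrower by 4015 kb and 1360 kb. Over all starts the share with a wider window in dTAG was then 49.1% in mESCs and 30.9% in 2CLCs. With domains under 20 kb left out, 77.7% of starts in mESCs and 86.8% in 2CLCs had a narrower window in dTAG. Hoxd alone changed direction at this limit, with windows wider by 970 kb in mESCs and 10 kb in 2CLCs, and the Hoxb window in mESCs was narrower by 1075 kb in place of 260 kb.

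**Figure D4:**
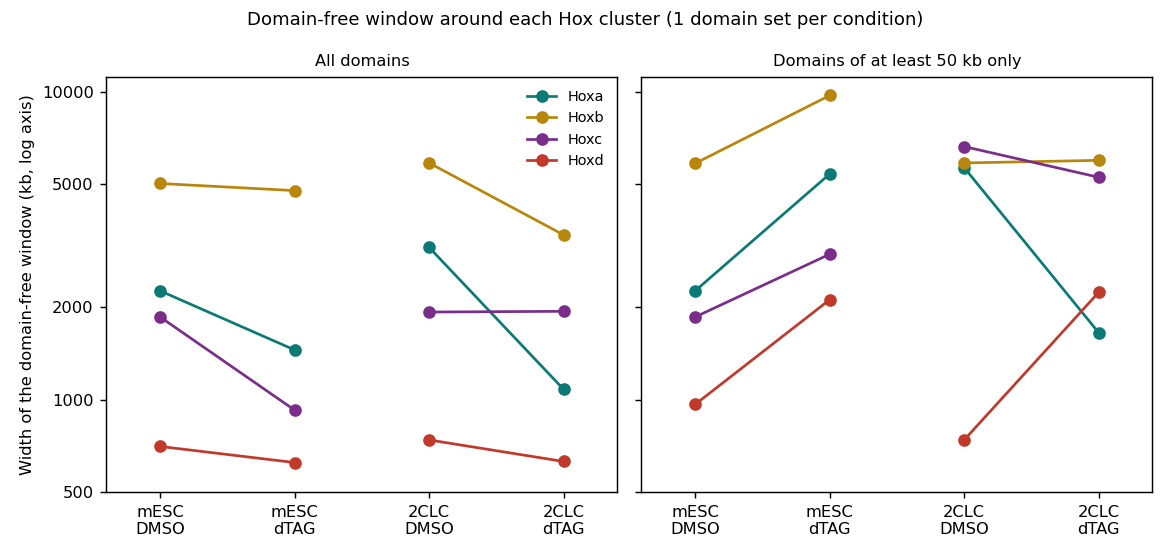
Points give the width of the domain-free window in kb on a log axis for each cluster and sorted condition, with 1 domain set per condition and lines joining DMSO to dTAG, for all domains (left) and domains of at least 50 kb (right). On the left 7 of 8 lines go down, and on the right all 4 mESC lines and those of Hoxb and Hoxd in 2CLCs go up.

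Between cell states, the windows of all 4 clusters were wider in 2CLCs than in mESCs in DMSO, by 865 kb for Hoxa, 835 kb for Hoxb, 70 kb for Hoxc and 35 kb for Hoxd, beside 8290 of 15691 starts outside domains in both sets (52.8%) with a wider window and a median ratio of 1.01 over them. Most of the Hoxa difference lay at the domain past Evx1, and most of the Hoxb difference at the 10 kb domain near Lrrc59, both without counterpart in 2CLC DMSO. With domains under 20 kb left out the Hoxb windows differed by 20 kb, and with domains under 50 kb left out the Hoxd window was narrower in 2CLC DMSO by 225 kb. In dTAG the 2CLC windows of Hoxa and Hoxb were narrower by 370 kb and 1345 kb, that of Hoxc was wider by 1010 kb, and that of Hoxd differed by 5 kb, a single bin. Over all starts outside domains in both dTAG sets, 70.3% had a narrower window in 2CLCs, with a median ratio of 0.891. Without domains found in 1 sorted set, the Hoxa windows did not differ in dTAG, and the Hoxc window was narrower in 2CLCs than in mESCs in both treatments, with 2CLC minus mESC at -4110 kb in DMSO and -1030 kb in dTAG. Between the outermost window edges of the sorted sets, 2CLC DMSO had 0 domains wholly inside, mESC DMSO 3, mESC dTAG 7 and 2CLC dTAG 11. Domains that crossed an outermost edge were not counted. Each sorted set had such a domain, that of 2CLC DMSO on the low side of Hoxc. For Hoxa, Hoxb and Hoxd the 2CLC DMSO window was itself the widest of these, which fixes its 0 there, as the low edge of the 2CLC dTAG window does for the 0 of that set at Hoxc. The whole sets differ in the same order, with 4226 stretches between domains in 2CLC DMSO, 4303 in mESC DMSO, 7292 in mESC dTAG and 8800 in 2CLC dTAG.

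The flanks were poor in domains in the sorted sets beside the whole genome. Flanks of other protein-coding starts outside domains were not measured, so this is not read as particular to Hox clusters. Of the 500 kb on each side of the 4 clusters, 7.88% of bases were in domains in DMSO and 7.38% in dTAG in mESCs, 5.31% and 7.00% in 2CLCs, beside 53.7%, 46.3%, 51.5% and 48.4% of the genome. The values of the sorted sets lay within 2.57 percentage points of each other. Most of it was at Hoxd, with 25.0%, 22.5%, 21.2% and 15.0%, while Hoxb had 0% in each. In the unnamed set the flanks held 22.5%, beside 62.6% of the genome, and those of Hoxd 67.5%.

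Hoxd1 was the Hox gene that came closest to a domain. In the unnamed set a domain at chr2:74763516-74818515, 55 kb wide, began 535 bases after the Hoxd1 start and held 1627 bases of the gene, 75.2% of its length. In the sorted sets no base of that domain was in a domain, and the Hoxd1 start was 245 kb, 165 kb, 250 kb and 170 kb from one in mESC DMSO, mESC dTAG, 2CLC DMSO and 2CLC dTAG. The offset of 535 bases is well under 1 bin, so the domain's edge cannot be placed on either side of the start. This set had the highest genome coverage of the 5.

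The sequence of the clusters differed from that of most of the genome. Soft-masked bases, which the assembly marks as repeats, made up 13.4% of the Hoxa span, 24.6% of Hoxb, 15.9% of Hoxc and 14.4% of Hoxd. In genome tiles of the same lengths the median was 32.2 to 32.4%, and 0.201%, 19.0%, 1.23% and 0.590% of tiles had as few. The ratio of observed to expected CpG was 0.477 in Hoxa, 0.349 in Hoxb, 0.357 in Hoxc and 0.460 in Hoxd, beside a tile median of 0.178. As high a ratio was found in 2 of 24343 tiles for Hoxa, 8 of 14736 for Hoxb, 12 of 22137 for Hoxc and 2 of 26437 for Hoxd, counts that can include tiles of the clusters themselves.

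**Figure D5:**
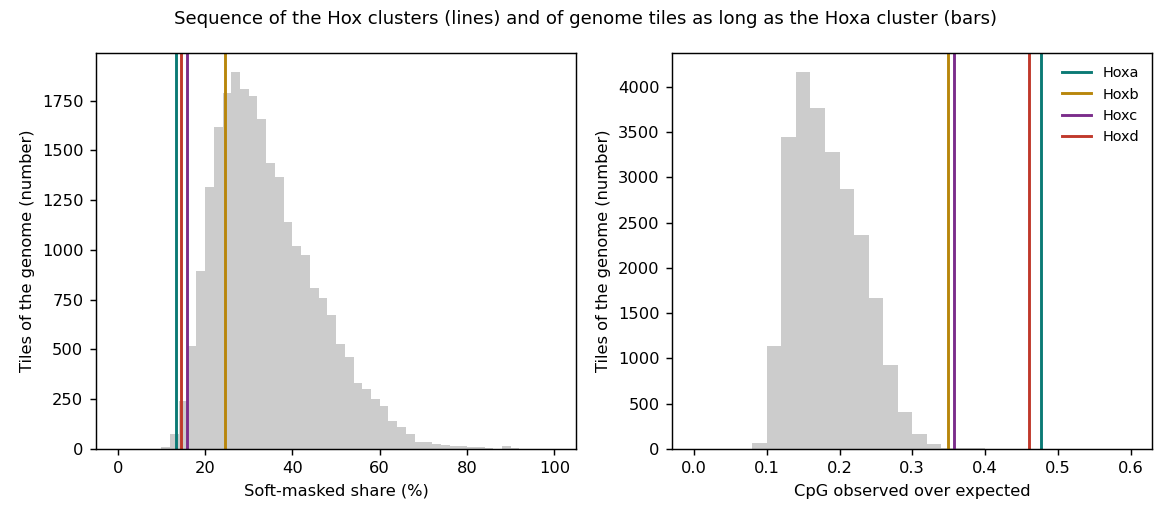
Bars count genome tiles of the length of the Hoxa cluster by soft-masked share in percent (left) and by the ratio of observed to expected CpG (right), and lines mark the span of each cluster. Hoxb, at 24.6%, lies within the bulk of tiles for masked bases and the other clusters at 13.4 to 15.9%, and all 4 lie above nearly all tiles for CpG.

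In the windows common to the 4 sorted sets, without the cluster itself, the masked share was 25.9% on the low side and 25.7% on the high side of Hoxa, 29.6% and 29.2% for Hoxb, 26.2% and 27.2% for Hoxc, and 30.7% and 22.5% for Hoxd. The CpG ratio there was 0.232 and 0.302 for Hoxa, 0.232 and 0.264 for Hoxb, 0.205 and 0.185 for Hoxc, and 0.305 and 0.229 for Hoxd, each below that of its cluster. Single 5 kb bins outside domains had a median masked share of 24.5% and a CpG ratio of 0.199 in mESC DMSO, and bins inside domains 32.2% and 0.141. Some of the domains that ended a window were rich in masked bases, with 80.1% in the 10 kb domain near Lrrc59, 55.0% in the Lnpk domain of 2CLC dTAG, 53.9% in the domain over Gsdma3 in mESC dTAG and 51.3% in the Atf7 domain. Others were not, such as the 25 kb domain on the low side of Hoxa in mESC dTAG with 20.2%. Reads with several matches were placed at random by the aligner, and the part of repeats in these domains was not tested.

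The starts of genes that work with Hox genes were counted in the same way, beside 22.3 to 26.5% of all protein-coding starts in the sorted sets and 30.0% in the unnamed set. Of 9 partners (the Pbx, Meis and Pknox genes, which encode homeodomain cofactors), 0 started in a domain in the sorted sets. Of 8 ParaHox, Cdx and Evx genes, relatives that share their origin, 0 did so in the sorted sets other than 2CLC dTAG and in the unnamed set, and 1, Cdx4 on the X chromosome, in 2CLC dTAG. The X chromosome was left out when coverage was scaled. Among 15 regulators of Hox genes (Polycomb, trithorax and Ctcf), 0 started in a domain in either DMSO set, 1 in mESC dTAG (Ash2l), 5 in 2CLC dTAG (Rnf2, Ring1, Cbx7, Wdr5 and Ash2l) and 1, Eed, in the unnamed set. Rnf2, Ring1 and Cbx7 encode subunits of Polycomb repressive complex 1, and Wdr5 and Ash2l are core subunits of the trithorax methyltransferases. The domains that held these starts in 2CLC dTAG were 15 kb wide for Cbx7, 30 kb for Ring1 and Wdr5, 90 kb for Rnf2 and 110 kb for Ash2l. The share in 2CLC dTAG, 5 of 15, stood beside 26.5% of all genes.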

How the data were processed

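H3K9me2 ULI-NChIP libraries and their inputs were processed by the authors (STAR 2.7.10, Picard 2.26.0, SAMtools 1.14, bedtools 2.30.0, deepTools 3.5.1 and R 4.1.2 per the submitters' processing notes). Per the study's methods, reads with several matches were kept at 1 random location, duplicates and regions of artificial signal were removed, coverage was scaled to genome content without chromosomes X and M, and domains were built from the log2 ratio to input, from bins above a high percentile outwards to bins below a low one. Whether replicates were pooled, and whether the percentiles were set per condition, was not stated. The deposited sets give domain positions with a score of 0 throughout, so there are no signal values and no values per sample. Sets were assigned by the cell state and treatment in their names, and the unnamed set entered no group.

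Windows, distances and shares of bases were computed with Python 3.11.15 and numpy 2.4.6 on chromosomes 1 to 19 and X, after the overlap code was tested on simulated data. Distances run from the first or last base of a cluster's gene bodies, and member distances from the start. Percentages of starts are descriptions. Genes named were all members, the 3 coding neighbours on each side, the coding starts nearest to window edges, and the 3 lists, with genes in domains inside the windows (Npvf, 4921507P07Rik, Osbpl3, Gm28047, Gsdma3, Gm12355, Acsf2) added after their values were seen. Members and lists were chosen with earlier results of these data known. Sequences came from RefSeq tables and the GRCm38.p6 assembly, whose lengths match the build of the files. Some single results are not reported here. Of the members, 17 had no promoter entry, Hoxb13 and Hoxc13 among them. Alternatives were the minimum domain width, joining of neighbouring domains, domains found in 1 sorted set, the span of a cluster, the flank width and what counts as a gene in a domain.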

Additional observations from a re-analysis of the deposited data

Results flagged for a closer look

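The Hoxc window moved in opposite directions in the 2 cell states after EHMT2 depletion, with dTAG minus DMSO at -930 kb in mESCs and 10.0 kb in 2CLCs. Each value compares 1 set with 1 set, and the difference between the cell states was not tested. The mESC windows ended at a 30 kb domain over the Atf7 start in dTAG and a 55 kb domain in DMSO, neither of which shares a base with another sorted set. Without domains found in 1 sorted set the mESC value was -3070 kb, and with domains of at least 50 kb alone both signs turned.

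The difference between 2CLCs and mESCs had opposite signs in the 2 treatments for Hoxa, with 2CLC minus mESC at 865 kb in DMSO and -370 kb in dTAG, and for Hoxb, at 835 kb in DMSO and -1345 kb in dTAG. These also compare 1 set with 1 set, and the differences were not tested. Without domains found in 1 sorted set the Hoxa value in dTAG was 0.0 kb. With domains under 20 kb left out the Hoxb value in DMSO was 20 kb. With domains of at least 50 kb alone the signs stayed opposite for both clusters.

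A domain of the unnamed set, which entered no comparison, held 1627 bases of the Hoxd1 gene body. None of those bases were in a domain in the sorted sets. The set has no matched control, so this difference was not tested.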

How the results depend on the processing

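No sorted set had a Hox start in a domain under any definition tried, and in the unnamed set Hoxd1 alone gave a count of 1, by gene body and within 5 kb of the start. The widths of windows moved most with the minimum domain width. At 20 kb or more, 17 of 20 windows moved by less than 1 bin, and the others became 5845 kb for Hoxb in mESC DMSO, 1675 kb for Hoxd in mESC dTAG and 750 kb for Hoxd in 2CLC dTAG. At 50 kb or more the mESC windows in DMSO became 5845 kb for Hoxb and 965 kb for Hoxd, the mESC dTAG windows 5400, 9710, 2965 and 2110 kb for Hoxa to Hoxd, the 2CLC DMSO windows 5665 kb for Hoxa and 6630 kb for Hoxc, and the 2CLC dTAG windows 1650, 5980, 5270 and 2230 kb for Hoxa to Hoxd. The dTAG minus DMSO differences that turned sign at 50 kb were 3145, 3865, 1110 and 1145 kb in mESCs and, for Hoxb, Hoxc and Hoxd in 2CLCs, 115, -1360 and 1490 kb, and at 20 kb those of Hoxd, 970 kb in mESCs and 10 kb in 2CLCs. The difference between 2CLCs and mESCs turned for Hoxd at 50 kb in DMSO (-225 kb) and at 20 kb in dTAG (-925 kb). Leaving out the domains that closed a window can only widen that window, but it does not fix the sign of a difference between sets. Joining domains at most 10 kb apart moved no window by a bin. Leaving out domains found in 1 sorted set gave 6035 kb for Hoxc in mESC DMSO, 2965 kb for Hoxc in mESC dTAG, 1450 kb for Hoxa in 2CLC dTAG and 3970 kb for Hoxb in 2CLC dTAG, and turned 2CLC minus mESC for Hoxc to -4110 kb in DMSO and -1030 kb in dTAG.

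Measured between first and last starts, 5 of the 40 distances, all on the Hoxc4 side, moved by 1 bin or more, and the Hoxd overlap in the unnamed set became a gap of 0.5 kb. Flank coverage was 6.88, 5.25, 4.18, 5.50 and 20.5% (mESCs in DMSO and dTAG, 2CLCs in DMSO and dTAG, unnamed set) with domains of at least 50 kb, 8.81% in 2CLC DMSO and 9.31% in 2CLC dTAG over 1000 kb, and 9.21% in 2CLC dTAG and 20.6% in the unnamed set over 250 kb. Leaving out replicates was not possible with 1 list per condition. No paired analysis was possible because the sets hold no values per replicate and no result comes from a test. The depth behind the domains is unknown, so what it limits cannot be given.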
